A study of Mus musculus with 8 samples.

Results

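RNA-seq libraries of JUN-TetON mouse embryonic stem cells (ESCs) that received BI-9564 were compared with those that did not. The libraries were chosen by their treatment labels alone, which placed 4 of the 8 libraries of the series on the side with BI-9564 (2 with BI-9564 alone and 2 with PFI-3 and BI-9564 together, named P+B) and 4 on the side without it (2 with DMSO, the solvent, and 2 with PFI-3 alone). Every library, controls included, came from OG2 ESCs, which carry a GFP reporter of *Pou5f1*, with the genotype c-Jun_TetOn_mESC on a mixed 129SVJ, C57B6 and CBA background at passage 12. They were grown without feeders in mESC-2i medium with serum, LIF, the MEK inhibitor PD0325901 and the GSK3 inhibitor Chir99021, and all received 2 μg/ml doxycycline, which switches on JUN, with a labelled treatment time of 6 h. The study's description of this experiment gives a longer JUN induction than compound treatment, so the labelled time may be that of the compounds alone. No library without doxycycline was analysed here, so the values describe what BI-9564 changed in cells with JUN switched on, not what JUN itself changed. The labels give no dose of either compound. In other assays of the study each compound was used at a lower concentration in P+B than alone. Whether that holds for these libraries is not given in the sources used here. The doses of BI-9564 and of PFI-3 may therefore both be lower in P+B than in the single-compound libraries. The PFI-3 block would not remove such a difference in PFI-3, which would be part of the change from PFI-3 alone to P+B. The labels also do not say whether replicates came from separate cultures, so p-values measure the spread between these libraries, which may be technical.

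Bromodomains are protein pockets that bind acetylated lysines, among them those of histone H3, and so help to hold chromatin regulators at active promoters and enhancers. BI-9564 blocks the bromodomains of BRD9, a subunit of the non-canonical BAF chromatin remodelling complex, and of the related BRD7, a subunit of the PBAF form. PFI-3 blocks bromodomains of other subunits, namely those of the ATPases SMARCA4 (BRG1) and SMARCA2 and of PBRM1. In ESCs, BAF complexes act at the enhancers of pluripotency genes, and AP-1 factors are known to recruit BAF complexes to enhancers in somatic cells. The comparison asks which transcripts move with BI-9564, irrespective of whether PFI-3 is given too. Binding of the compounds to these or other proteins was not measured in these libraries.

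Values are whole numbers that look like rounded or cut TPM, the study's expression unit (a transcript level scaled for gene length and library total), and changes are differences in log2(value + 1), a scale that understates the change of genes with low values. The libraries summed to between 991574 and 991897, and 10285 to 10451 genes reached a value of 5 in each library. TPM keeps no read number, so depth is unknown and no counting error is given. *Pou5f1*, the defining factor of pluripotent cells, was between 1104 and 1333 in all 8 libraries. Of 10 fibroblast markers, 6 were at 0 in every library and the sum of all 10 was 0 to 5 without and 2 to 3 with BI-9564. The summed values of 10 markers each were 22 to 40 without and 19 to 31 with BI-9564 for primitive endoderm, 103 to 195 and 66 to 110 for trophectoderm, 8 to 14 and 9 to 16 for mesoderm, and 77 to 105 and 100 to 135 for neuroectoderm.

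BI-9564 changed 526 of the 10222 genes tested, 236 of them higher (2.31% of genes tested) and 290 lower (2.84%), with limma, requiring an adjusted p-value under 0.05 and a change of 1.5-fold or more, with PFI-3 and the replicate number as blocks. The falls were the larger of the changes: 78 genes fell and 32 rose by at least 2-fold. Of the 526 genes, 516 moved the same way in each of the 4 matched pairs, that is, BI-9564 against DMSO and P+B against PFI-3 with the same replicate number. The median change of all tested genes was 0.03 on the log2 scale. The split between rises and falls depended on the scaling, with 44.9% of the called genes higher as deposited, 33.5% after each library was centred on its median (176 higher, 350 lower) and 32.2% after quantile normalization (153 higher, 322 lower). When each library in turn was left out, 252 of the 526 genes, 72 higher and 180 lower, passed in all 8 fits. Leaving out PFI-3 replicate 1 gave the lowest count, 369.

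The design holds the effect of BI-9564 in a pair of arms, without and with PFI-3, which share no library. All 526 called genes had the same sign without PFI-3 (BI-9564 against DMSO) and with it (P+B against PFI-3), a property that the choice of these genes favours. Across the 10222 genes the Pearson correlation between the effects in the 2 arms was 0.54, a description only, since genes are not independent replicates and the called genes are among them. With 2 libraries a side and 1 residual degree of freedom, neither arm called a gene on its own. At an unadjusted p under 0.05, 1763 genes passed without PFI-3 and 1863 with it.

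**Figure D1:**
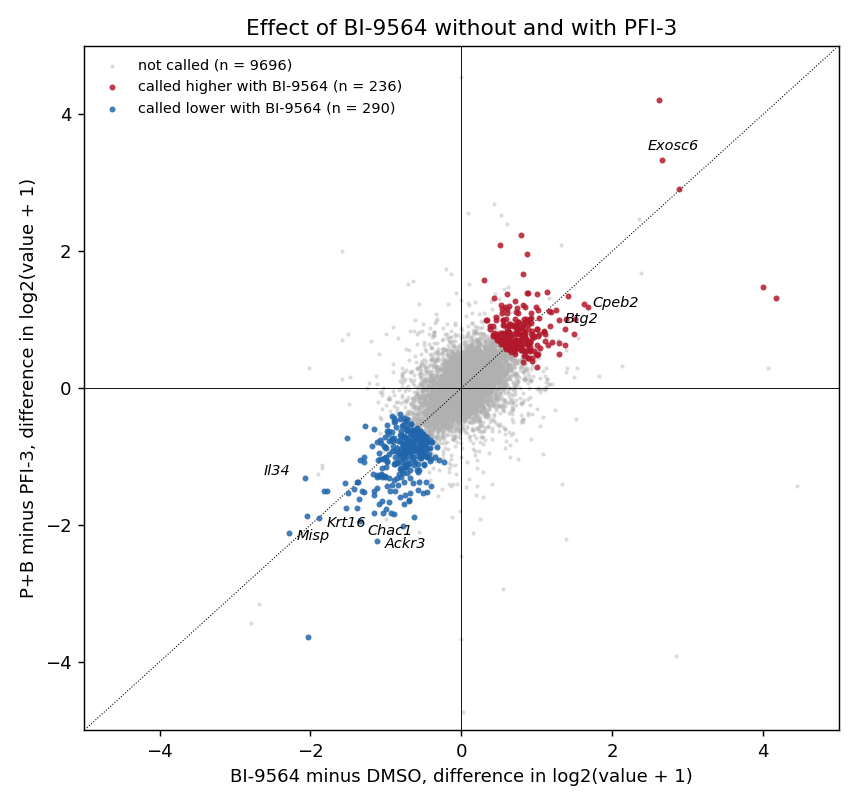
Each point is 1 of the 10222 tested genes, with its effect of BI-9564 without PFI-3 on the x axis and with PFI-3 on the y axis, both as differences in log2(value + 1). The 236 genes called higher lie to the upper right and the 290 called lower to the lower left, on both sides of the dotted line of equal effect.

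The largest fall among named genes was that of *Misp* (chr10:79820989-79830490 on GRCm38, plus strand), which encodes an actin-bundling protein of the mitotic spindle and cell cortex. *Misp* was at 32 and 29 in DMSO, 19 and 16 under PFI-3, 5 and 6 under BI-9564 and 5 and 2 under P+B. The 4 libraries with BI-9564 were all below the 4 without, and the gene was 4.59-fold lower (log2 change -2.20 ± 0.20 SE, limma adjusted p = 0.000634). Of the 15 largest falls, 12 showed such a separation, while the groups overlapped for *Krt16*, *Ackr3* and *Tgm2*, where PFI-3 replicate 2 reached into the range with BI-9564. Over all tested genes, 6.04% had all 4 libraries with BI-9564 below all 4 without. The 15 genes were picked for a call, a common direction in all 4 pairs and a large change, a choice that favours such separation.

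Several of these genes encode surface or secreted proteins. *Il34*, a ligand of the CSF1 receptor, was at 18, 14, 11 and 12 without BI-9564 (DMSO, then PFI-3) and at 7, 1, 4 and 4 with it (BI-9564, then P+B), a 3.25-fold fall. *Ackr3*, an atypical chemokine receptor that takes up CXCL12, fell 3.19-fold, from 26, 16, 21 and 11 to 13, 6, 5 and 1. *Msln*, which encodes the surface protein mesothelin, fell 2.81-fold and *Loxl4*, a lysyl oxidase-like enzyme of the matrix, 2.65-fold. The adjusted p-value of *Il34* was 0.0136, rising to 0.0507 without PFI-3 replicate 2 and to 0.05 without DMSO replicate 2, and for the other 3 genes it stayed at or below 0.0265 whichever library was left out.

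Another set acts on actin, keratin filaments or the protein-crosslinking machinery. *Tgm2*, a transglutaminase that crosslinks proteins at the cell surface, was at 26, 21, 11 and 7 without BI-9564 and at 9, 4, 3 and 2 with it, 3.12-fold lower (adjusted p = 0.00111). *Gsn* encodes gelsolin, which severs actin filaments, and was at 62, 59, 45 and 32 without and 30, 28, 14 and 7 with BI-9564, 2.7-fold lower (adjusted p = 0.00251). *Krt16*, a keratin of stressed epithelia, fell 3.71-fold and had a strong replicate difference, with 33 and 11 for DMSO replicates 1 and 2 and 9 and 2 for BI-9564. Its call was lost with no replicate block. *Ccdc141*, *Aim1l* and *Sdcbp2* fell 2.66-fold, 3.11-fold and 3.16-fold. *Zbtb32*, a zinc finger repressor, was at 65, 67, 52 and 49 without and 29, 21, 17 and 12 with BI-9564, and had the smallest adjusted p of the 15 (0.000369, 2.96-fold lower).

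Of 8 tested integrin subunits, the receptors that link cells to the matrix, 4 fell and none rose, and all 8 had a change below 0 (median log2 change -0.50). Over all tested genes, 2.84% fell and 2.31% rose at the same thresholds, and 4543 of 10222 had a change below 0. The counts of the lists that follow are to be read beside these shares. *Itga3*, a laminin-binding subunit, was at 61 and 75 in DMSO, 35 and 40 under PFI-3, 36 and 39 under BI-9564 and 18 and 16 under P+B. The single-compound libraries were at about the same level and those with both compounds were lowest, and the BI-9564 effect was 1.95-fold lower (log2 change -0.97 ± 0.10 SE, adjusted p = 0.00095). *Itga5*, the fibronectin-binding subunit, fell 1.76-fold and *Itga6*, another laminin-binding subunit, 1.65-fold. *Itga7* fell 2.04-fold from lower values (9, 13, 7 and 4 to 5, 5, 2 and 2) and lost its call in 5 of the 8 fits that left out a library, with an adjusted p of up to 0.0791.

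On the cytoplasmic side of the adhesions, 4 of 27 tested focal adhesion genes fell and none rose (median -0.22). *Tns1* and *Tns3* encode tensins, which tie integrins to actin, and fell 2.3-fold and 1.73-fold. *Tns3* was at 42, 44, 43 and 46 without and 28, 24, 22 and 26 with BI-9564, so with PFI-3 alone it was at the DMSO level. *Flnc*, the actin crosslinker filamin C, showed another order, with 52 and 61 for DMSO, 38 and 29 for BI-9564, 25 and 21 for PFI-3 and 10 and 5 for P+B (2.22-fold lower with BI-9564, adjusted p = 0.0083). *Parvb*, which encodes an integrin-linked kinase partner, fell 1.53-fold, and its call was lost without PFI-3 replicate 2 (log2 change -0.58) and without P+B replicate 1 (-0.58), where the fold was under 1.5.

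*Lama3*, a laminin chain, fell 1.86-fold, and *Spp1* (osteopontin) fell 1.55-fold from high levels, 578, 446, 565 and 414 without BI-9564 to 364, 297, 347 and 280 with it (adjusted p = 0.000233). Of 19 tested matrix genes 3 fell and none rose (median change -0.08). Of 9 tested protease system genes, 4 fell and none rose. *Plaur*, the receptor of urokinase, fell 1.75-fold, *Timp1*, an inhibitor of metalloproteases, 1.81-fold, and *Mmp14*, a membrane metalloprotease, 1.86-fold, and in each of these 3 genes the libraries with BI-9564 were below those without. The EGF receptor ligands *Hbegf* (2.29-fold) and *Nrg1* (1.8-fold) also fell, 2 of 5 tested genes of that family.

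**Figure D2:**
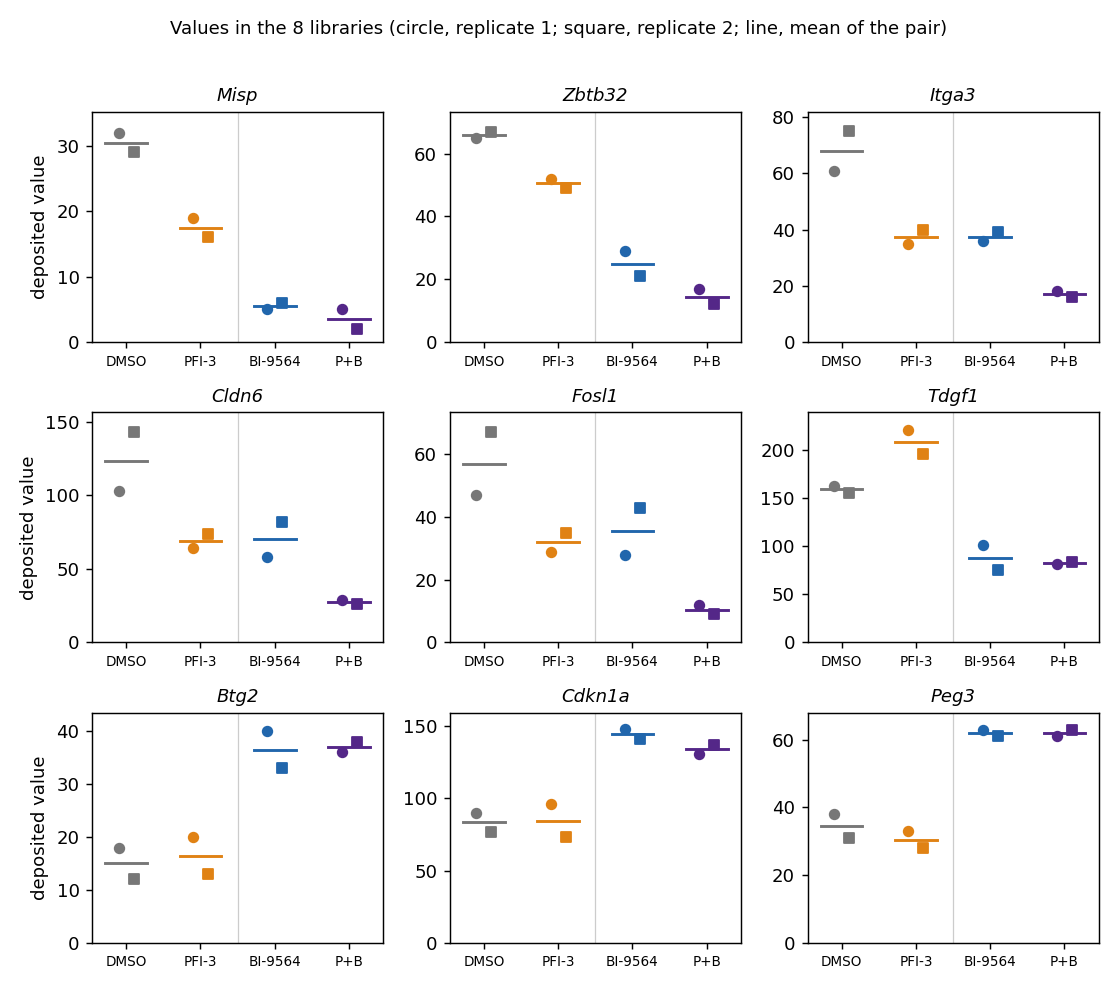
Deposited values (whole numbers on a TPM-like scale) of 9 genes in the 8 libraries, grouped by treatment, with a circle for replicate 1, a square for replicate 2 and a line at the mean of the pair. *Misp* and *Tdgf1* are low in the 4 libraries with BI-9564, *Zbtb32*, *Itga3*, *Cldn6* and *Fosl1* are lowest with P+B, and *Btg2*, *Cdkn1a* and *Peg3* are higher in all 4 libraries with BI-9564.

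Epithelial genes were lower as well, 5 of 17 tested having fallen and 1 having risen (median -0.40). The partner keratins *Krt8* and *Krt18*, which pair into filaments of simple epithelia, fell 1.93-fold and 2.22-fold. *Krt18* was at 103 and 89 in DMSO, 66 and 51 under PFI-3, 58 and 38 under BI-9564 and 27 and 20 under P+B. *Dsp* (desmoplakin, of desmosomes) fell 1.98-fold, and *Cldn6*, a tight junction claudin of early embryonic epithelia, fell 2.07-fold from 103, 143, 64 and 74 to 58, 82, 29 and 26, with BI-9564 replicate 2 above both PFI-3 libraries. *Cdh1*, the E-cadherin gene that ESC colonies depend on, had all 4 libraries with BI-9564 (322 to 379) below all 4 without (429 to 488), but its fold of 1.32 was under the threshold. The only rise was that of *Zeb1*, a repressor of *Cdh1*, from 6, 8, 5 and 8 to 12, 11, 10 and 11, a call lost in 6 of the 8 fits that left out a library (adjusted p up to 0.101).

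All 12 tested annexin and S100 genes, which encode calcium-dependent membrane and signalling proteins, had changes below 0, and 6 of them fell (median -0.61). *S100a10* and its binding partner *Anxa2* fell 1.57-fold and 1.55-fold, and *S100a6* 1.79-fold. The *S100a6* values were 387 and 151 in DMSO, 315 and 108 under PFI-3, 252 and 99 under BI-9564 and 148 and 51 under P+B, so replicate 2 was the lower in each group and the fall shows within each replicate number. *Anxa7* was at 213, 224, 172 and 191 without and 161, 148, 107 and 108 with BI-9564, a 1.54-fold fall without overlap. *S100a6* kept its call in all 8 fits that left out a library, while the other 5 lost theirs in 1 to 5 of them (for example, *S100a10* at -0.58 without PFI-3 replicate 1 and *Anxa7* at -0.56 without PFI-3 replicate 2, both under the fold threshold). With no replicate block, however, the *S100a6* call was lost.

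**Figure D3:**
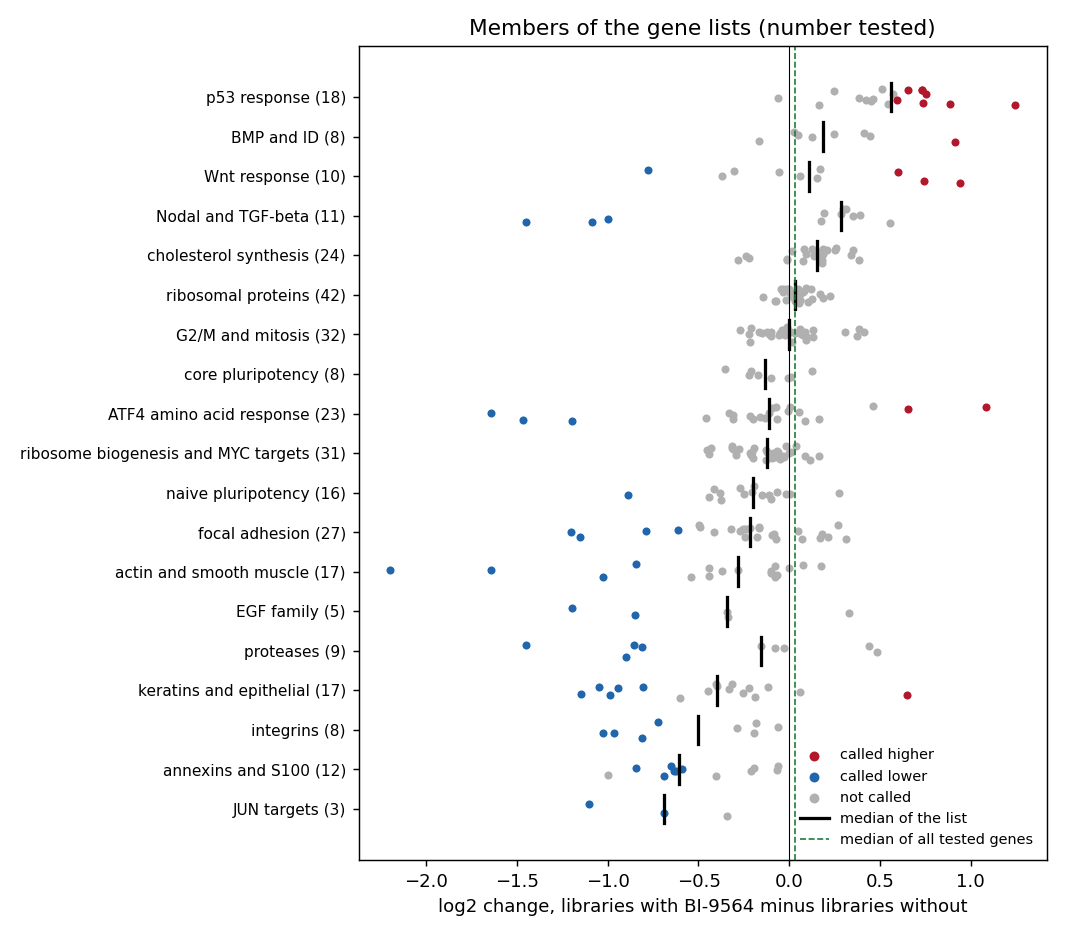
Log2 changes with BI-9564 (libraries with minus libraries without) of the tested members of 19 gene lists, 1 point a gene, coloured by call, with the list's median as a black bar and the median of all tested genes (0.03) as a dashed line. The p53 response list lies to the right, and the JUN target, annexin, integrin and epithelial lists lie to the left.

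Of the 6 genes that the study follows as JUN targets, 3 were tested and 2 of them fell, and since the study chose these genes on its own samples the list is not independent evidence of a direction. *Fosl1*, an AP-1 partner of JUN, was at 47 and 67 in DMSO, 29 and 35 under PFI-3, 28 and 43 under BI-9564 and 12 and 9 under P+B. The effect of BI-9564 on it was 2.15-fold lower (log2 change -1.10 ± 0.21 SE, adjusted p = 0.00949), a call lost with no PFI-3 block. *Anxa1* fell 1.61-fold (adjusted p = 0.0129), from 63, 52, 39 and 26 to 45, 40, 21 and 12, and lost its call without PFI-3 replicate 1 (log2 change -0.59, adjusted p = 0.0542) and without P+B replicate 2 (-0.55). The *Anxa1* call was also lost with no replicate block and with no PFI-3 block. *Fosl2* was at 35, 34, 24 and 29 without BI-9564 and 35, 33, 19 and 14 with it, and did not pass (log2 change -0.34, adjusted p = 0.172). *Runx1*, *Pxdc1* and *Tgfbi* averaged below 5 and so stayed out of the test. In a fit with genes of a mean of at least 1, *Tgfbi* had a log2 change of -1.10 (adjusted p = 0.0353; 3, 7, 1 and 3 to 1, 2, 0 and 1), *Pxdc1* one of -0.91 (adjusted p = 0.105) and *Runx1* one of -0.40 (adjusted p = 0.39).

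The level of *Jun* itself, looked up after these values were seen, did not separate the groups. It was at 1970 and 2877 in DMSO, 1570 and 2227 under PFI-3, 2071 and 3011 under BI-9564 and 1569 and 2159 under P+B, a log2 change of 0.02 with BI-9564 (adjusted p = 0.635). These values hold transcripts of the doxycycline-driven gene and of the cell's own gene, which cannot be told apart here. Of 12 tested AP-1 family members, *Fosl1* was the one called. *Junb* had all 4 libraries with BI-9564 (25 to 31) below all 4 without (33 to 48) and *Jund* a log2 change of -0.33, both under the fold threshold.

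The site of AP-1 factors is TGACTCA, which reads TGAGTCA on the other strand. The promoters of the called genes were searched for the wider pattern TGANTCA (N, any base), which is the same on both strands. The search used RefSeq windows from 250 bases before to 50 after the start on GRCm38.p6. Matches with A or T in the middle were counted too, so the shares are not shares of AP-1 sites alone. At least 1 match was found in 26 of 206 promoters of genes called lower (12.6%), in 5 of 181 of genes called higher (2.76%), in 332 of 7782 of all tested genes (4.27%) and in 7.93% of all 27025 promoters. The cyclic AMP response element TGACGTCA, which shares no match with TGANTCA, was in 2 of the promoters of genes called lower (0.971%), 7 of those called higher (3.87%) and 3.69% of those tested. CTTTGAT, bound by TCF factors and searched on both strands, was in 2.43%, 2.21% and 2.39%, and the E-box CACGTG in 9.71%, 12.2% and 11.1%. These are shares of promoters that hold the letters, described without a test, and no binding was measured here. Only the first window listed for each gene symbol was searched, and the sets of promoters were not matched for base composition. The promoters of 4 described genes and of *Emp1*, an epithelial membrane protein gene with 2 matches, are shown 5′ to 3′ along the gene's strand with the TGANTCA matches in capitals, because they belong to genes that fell. *Emp1* was chosen after its values were seen.
*Sdcbp2*, chr2:151572373-151572672, plus strand: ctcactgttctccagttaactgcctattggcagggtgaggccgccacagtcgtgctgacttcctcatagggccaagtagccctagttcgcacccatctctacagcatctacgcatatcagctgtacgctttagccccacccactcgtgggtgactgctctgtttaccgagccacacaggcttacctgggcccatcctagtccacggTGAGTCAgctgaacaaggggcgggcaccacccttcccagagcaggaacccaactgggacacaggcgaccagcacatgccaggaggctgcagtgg
*Plaur*, chr7:24462233-24462532, plus strand: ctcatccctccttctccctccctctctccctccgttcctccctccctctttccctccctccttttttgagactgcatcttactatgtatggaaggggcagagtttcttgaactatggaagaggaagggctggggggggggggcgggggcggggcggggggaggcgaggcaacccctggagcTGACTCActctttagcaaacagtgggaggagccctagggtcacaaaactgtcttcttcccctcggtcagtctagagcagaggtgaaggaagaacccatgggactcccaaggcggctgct
*Anxa2*, chr9:69453433-69453732, plus strand: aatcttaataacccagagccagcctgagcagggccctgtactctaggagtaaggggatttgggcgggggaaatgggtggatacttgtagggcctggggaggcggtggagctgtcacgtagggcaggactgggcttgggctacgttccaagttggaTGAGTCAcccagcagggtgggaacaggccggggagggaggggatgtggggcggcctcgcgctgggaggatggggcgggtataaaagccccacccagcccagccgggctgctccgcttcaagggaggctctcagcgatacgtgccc
*Plet1*, chr9:50494275-50494574, plus strand: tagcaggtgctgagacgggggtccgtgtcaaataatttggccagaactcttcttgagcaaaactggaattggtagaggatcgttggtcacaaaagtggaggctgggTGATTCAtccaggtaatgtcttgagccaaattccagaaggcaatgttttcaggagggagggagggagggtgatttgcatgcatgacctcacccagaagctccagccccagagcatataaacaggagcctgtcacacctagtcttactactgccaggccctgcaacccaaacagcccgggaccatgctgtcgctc
*Emp1*, chr6:135362681-135362980, plus strand: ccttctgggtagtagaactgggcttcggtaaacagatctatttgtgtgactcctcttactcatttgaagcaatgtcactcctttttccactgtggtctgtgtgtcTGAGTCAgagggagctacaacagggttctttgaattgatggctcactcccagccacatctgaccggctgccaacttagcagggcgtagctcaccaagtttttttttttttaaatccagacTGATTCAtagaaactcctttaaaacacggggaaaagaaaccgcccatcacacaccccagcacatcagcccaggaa
The match lay 44 bases before the start in *Sdcbp2*, 69 in *Plaur*, 95 in *Anxa2* and 144 in *Plet1*. The middle base was T, outside the AP-1 site, in the *Plet1* match and in 1 of the 2 *Emp1* matches. *Sdcbp2*, which encodes a syntenin-like scaffold protein, was at 13, 30, 10 and 10 without and 4, 6, 4 and 2 with BI-9564. *Emp1* fell 2.33-fold, from 136, 141, 80 and 75 to 78, 85, 21 and 26. *Plet1*, a surface protein of trophoblast progenitors, fell 2.31-fold, from 163, 134, 92 and 74 to 75, 73, 29 and 31. It is 1 of the 10 trophectoderm markers summed above, and under P+B it was less than the other markers together. *Ascl2* of the same marker list rose 1.72-fold at low values (5, 4, 5 and 3 to 7, 8, 10 and 7). The *Ascl2* call was lost in 7 of the 8 fits that left out a library (adjusted p up to 0.11) and without the replicate block. The single-compound levels of *Emp1* and *Plet1* were close to each other and P+B was lowest.

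Of the 15 largest rises among named genes, 10 had all 4 libraries with BI-9564 above all 4 without, and *Btg2* had the smallest adjusted p. The share over all tested genes was 7.78%, but the choice of these 15 genes favours such separation. *Btg2* (chr1:134075170-134079120, minus strand), an antiproliferative gene that p53 is known to induce, was at 18, 12, 20 and 13 without and 40, 33, 36 and 38 with BI-9564, 2.29-fold higher (log2 change 1.20 ± 0.12 SE, adjusted p = 0.00095). The PFI-3 effect on it was 0.08 on the log2 scale. *Zfp365*, known for a role in genome stability, rose 2.39-fold from 8, 5, 10 and 7 to 22, 18, 20 and 16, and *Paqr3*, a Golgi protein that restrains RAF kinase, rose 2.61-fold from 5, 5, 8 and 3 to 15, 15, 17 and 12. *Paqr3* overlaps *Bmp2k* on the other strand, and how the counting treated strand is not given in the sources used here. *Espn*, the actin-bundling protein espin, rose 2.22-fold from 10 to 13 without to 22 to 29 with BI-9564. *Cpeb2* (2.7-fold), a translational regulator, *Fam222a* (2.41-fold), *Neto2* (2.3-fold), a kainate receptor auxiliary subunit, and *Pou4f1* (2.28-fold), a sensory neuron factor, rose from values of 2 to 5.

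The 2 largest rises are uncertain. *Exosc6* was at 0, 12, 0 and 4 without and 28, 17, 20 and 23 with BI-9564 (log2 change 3.00 ± 0.61 SE, adjusted p = 0.0132, and 0.0577 without PFI-3 replicate 1), and it lies inside *Aars* on the same strand (chr8:111056339-111057664). *Rps27rt* is a copy of *Rps27* and jumped between replicates, 0 and 50 with DMSO and 0 and 39 with PFI-3, against 53, 51, 29 and 74 with BI-9564. *Rps27rt*, *Mid1ip1*, *Plk5*, *Cers4* and *Fam219a* each lost their call in 6 of the 8 fits that left out a library, and *Ddit4l* in 7, and their folds were 2.21 to 7.46. Beside the named genes, 19 of the called rises and 22 of the falls had provisional names.

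The p53 response was the gene list with the most calls upward. Of its 18 tested genes, 8 rose and none fell, 17 had a change above 0, and 13 had all 4 libraries with BI-9564 above all 4 without, where 7.78% of all tested genes did so. Only 4 of the 8 calls were kept in all 8 fits that left out a library. The median change was 0.56, against 0.03 for all tested genes. *Cdkn1a* (chr17:29090976-29100727, plus strand) encodes p21, an inhibitor of cyclin-dependent kinases, and was at 90 and 77 in DMSO, 96 and 73 under PFI-3, 148 and 141 under BI-9564 and 131 and 137 under P+B, 1.66-fold higher (log2 change 0.73 ± 0.08 SE, adjusted p = 0.001). *Ccng1* (cyclin G1) was at 112, 91, 120 and 81 without and 173, 173, 158 and 163 with BI-9564, also 1.66-fold higher. *Trp53inp1*, a p53-induced stress gene, rose 1.84-fold from 45, 28, 51 and 30 to 73, 55, 86 and 68. The PFI-3 effects on these genes were -0.05, -0.07 and 0.20 on the log2 scale.

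*Ptp4a3*, a protein phosphatase gene, rose 1.68-fold (adjusted p = 0.00491), *Aen*, an apoptosis-enhancing nuclease, 1.51-fold (adjusted p = 0.00198) and *Sesn2*, a sensor that restrains mTORC1, 1.57-fold (adjusted p = 0.00181). *Pmaip1*, which encodes the BCL2 antagonist NOXA, was at 8, 7, 9 and 5 without and 14, 13, 11 and 12 with BI-9564 (1.66-fold, adjusted p = 0.0226), and lost its call in 6 of the 8 fits that left out a library. *Mdm2*, the p53 ubiquitin ligase that p53 itself induces, was under the fold threshold at 1.42-fold (adjusted p = 0.00283). The call of *Aen* was lost in 4 of these fits and that of *Sesn2* without DMSO replicate 2 (log2 change 0.57), where the fold fell under 1.5. That of *Ptp4a3* was lost with no replicate block. *Trp53*, named here outside the rule for naming genes, was at 445 to 475 without and 414 to 462 with BI-9564. Its log2 change was -0.06 (adjusted p = 0.317).

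No cell cycle list gene passed, where 2.31% of all tested genes rose and 2.84% fell. None of 31 tested G1/S and replication genes (median -0.05) and none of 32 tested G2/M genes was called, and of the latter 16 had a change above 0 and 16 below. *Ccnd1* (cyclin D1), held in the Wnt response list, fell 1.71-fold, from 40, 54, 40 and 58 without to 29, 29, 25 and 26 with BI-9564 (adjusted p = 0.00331).

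The ATF4 response, by which cells answer amino acid shortage, divided. Of 23 tested genes 3 fell and 2 rose (median -0.11). *Chac1*, which degrades glutathione, was at 10, 6, 13 and 16 without and 3, 2, 3 and 3 with BI-9564 (3.13-fold lower, adjusted p = 0.00345). *Trib3*, a pseudokinase induced by ATF4, was at 44, 39, 50 and 65 without and 21, 23, 21 and 18 with it (2.29-fold lower), and *Nupr1*, a stress-induced chromatin protein, fell 2.77-fold, from 16, 19, 38 and 22 to 4, 7, 12 and 9. In all 3 genes the groups did not overlap. The rises were *Sesn2*, counted above, and *Ddit4* (REDD1), another restrainer of mTORC1, which went from 27, 12, 20 and 15 to 41, 33, 41 and 40 (2.12-fold, adjusted p = 0.00359). *Atf4* itself was 1.38-fold lower, under the fold threshold (adjusted p = 0.00234).

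Few pluripotency genes passed. Of 16 tested naive pluripotency genes 14 had a change below 0 (median -0.20), and *Fgf4*, which pushes ESCs towards differentiation, was the one called, at 44, 33, 55 and 53 without and 31, 17, 33 and 19 with BI-9564 (1.85-fold lower, adjusted p = 0.00494). *Nanog* (log2 change -0.41), *Zfp42* (-0.44) and *Klf5* (-0.38) had adjusted p-values under the threshold, at 0.0129, 0.00899 and 0.00764, with folds under 1.5. None of 8 core pluripotency genes was called. *Pim2* and *Zic2*, of 9 tested formative and primed state genes, rose 1.54-fold and 1.65-fold. *Pim2* fell under the fold threshold without PFI-3 replicate 2 (log2 change 0.54), without P+B replicate 2 (0.56), after median centring (0.57) and after quantile normalization (0.56), and both genes did so with a pseudocount of 5 (0.52 for *Pim2* and 0.53 for *Zic2*). *Zic2* also lost its call with no PFI-3 block (adjusted p = 0.0744).

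Signalling genes showed a few clear changes. *Tdgf1* (chr9:110939603-110946158, minus strand) encodes Cripto, a co-receptor for Nodal, and fell 2.12-fold, from 163 and 156 with DMSO and 221 and 196 with PFI-3 to 101 and 76 under BI-9564 and 82 and 84 under P+B (adjusted p = 0.000778). *Lefty2*, a Nodal inhibitor and target, fell 2-fold, from 23, 8, 20 and 12 to 13, 5, 10 and 3, a call lost with no replicate block. Of 11 tested Nodal and TGF-beta genes 3 fell and none rose, whereas 8 of the 11 had changes above 0 (median 0.28). *Bcl3*, a STAT3 target of LIF, was at 27, 32, 34 and 40 without and 15, 8, 20 and 15 with BI-9564, 2.29-fold lower (adjusted p = 0.00417). *Id3*, a BMP-induced inhibitor of differentiation, rose 1.89-fold, from 20, 24, 33 and 25 to 41, 33, 71 and 56.

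Of 10 tested Wnt response genes 3 rose and *Ccnd1* fell (median 0.11). *Axin2*, the feedback inhibitor of the pathway, was at 17, 26, 25 and 43 without and 30, 37, 42 and 57 with BI-9564 (1.52-fold, adjusted p = 0.00471). *Sp5* and *Gbx2*, the latter in the LIF-STAT3 list, rose 1.92-fold and 1.83-fold, mostly in the P+B libraries: *Sp5* was at 3 and 8 with DMSO, 4 and 10 with BI-9564, 6 and 13 with PFI-3 and 22 and 37 with P+B. *Sp5* lost its call in 6 of the 8 fits that left out a library, *Apcdd1* (1.68-fold) in all 8, *Gbx2* in 4 and *Axin2* in 3, where the fold was under 1.5. The calls of *Sp5*, *Apcdd1*, *Gbx2* and *Axin2* were also lost with no replicate block and with no PFI-3 block. That of *Axin2* was further lost with a pseudocount of 5, after quantile normalization and after median centring. Every library was grown with Chir99021, which switches this pathway on.

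The interaction asked whether the effect of BI-9564 differed with and without PFI-3. No gene passed (0 of 10222, 0%, limma), and 588 genes had an unadjusted p under 0.05, 55 of them among the 526 called genes. A difference in the dose of either compound between P+B and the single-compound libraries cannot be told apart from an interaction. A design of 2 libraries per group has little reach for such a difference, and a missed threshold does not show that the effects were equal. *Fosl1* had a log2 change of -0.68 without and -1.53 with PFI-3, and *Ackr3* one of -1.11 and -2.23, with adjusted p-values of 0.82 for both differences. *Misp*, at -2.28 and -2.12, and *Btg2*, at 1.25 and 1.15, had similar values in the 2 arms.

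The effects of BI-9564 and PFI-3 were set against each other in the same fit, a comparison added after the data were seen, in which both effects draw on all 8 libraries. Any lower dose of either compound in P+B would enter both effects. The difference passed for 188 genes (1.84%), 64 with BI-9564 above PFI-3 and 124 below. In the p53 response list 7 of 18 genes passed, all with the BI-9564 effect above the PFI-3 effect. *Cdkn1a* differed by 0.78 on the log2 scale (0.73 for BI-9564, -0.05 for PFI-3, adjusted p = 0.013) and *Plk2* by 0.94 (0.42 and -0.52, adjusted p = 0.0059). In the naive pluripotency list 7 of 16 passed, all with BI-9564 below PFI-3, namely *Fgf4* (-0.89 and 0.31), *Nanog* (-0.41 and 0.48), *Esrrb* (-0.07 and 0.81), *Zfp42*, *Klf4*, *Tfcp2l1* and *Nr0b1*. *Nupr1* (-1.47 and 0.78, adjusted p = 0.012) and *Chac1* (-1.64 and 0.51, adjusted p = 0.017) had the largest differences with BI-9564 below, among genes with a settled name.

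For the integrin, epithelial, annexin and JUN target lists no difference between the compounds passed. The effects were -0.97 for BI-9564 and -0.97 for PFI-3 on *Itga3*, -1.05 and -1.05 on *Cldn6*, and -1.10 and -1.22 on *Fosl1*, with standard errors of the difference of 0.14, 0.19 and 0.29. A difference that misses the threshold does not show that the compounds act alike. The count of 188 rested on single libraries and on the variance model: it was 4 without PFI-3 replicate 2, 7 without PFI-3 replicate 1, 7 without BI-9564 replicate 2, 57 without BI-9564 replicate 1, 61 without the replicate block and 0 without a trend of the variance on the mean, where 1926 genes had an unadjusted p under 0.05.

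**Figure D4:**
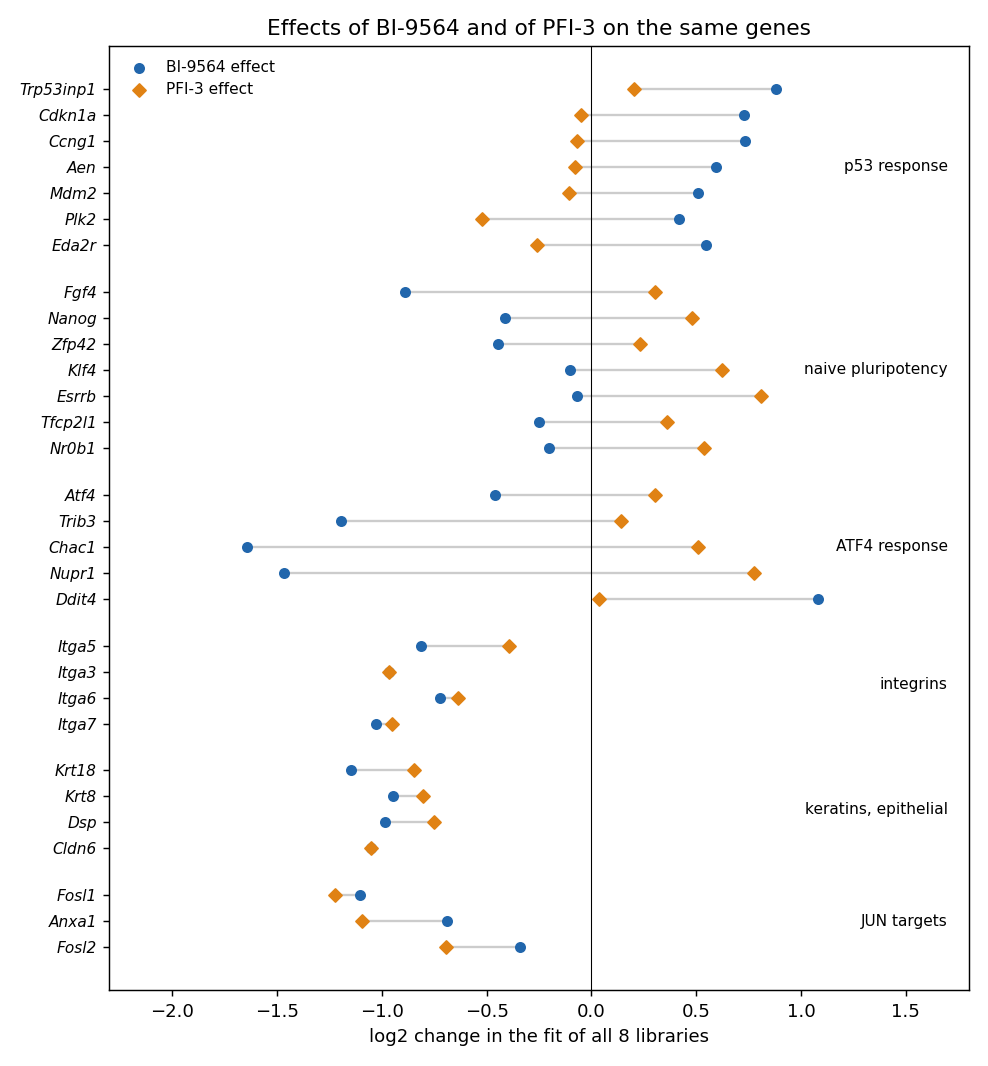
Log2 changes for BI-9564 (circles) and PFI-3 (diamonds) from the same fit of all 8 libraries, with a grey line joining the values of a gene. The p53 response, naive pluripotency and ATF4 genes shown, which were picked because the difference passed, have separate symbols, while those of *Itga3*, *Cldn6* and *Fosl1* lie close together.

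None of the genes of the bound proteins passed the test. *Brd9* was at 25, 25, 24 and 21 without and 27, 21, 23 and 23 with BI-9564 (log2 change -0.02, adjusted p = 0.927), and *Brd7* had a log2 change of 0.02 (adjusted p = 0.92). *Smarca4*, at 119 to 136 without and 136 to 147 with BI-9564, had one of 0.15 (adjusted p = 0.0542) and *Pbrm1* one of 0.11 (adjusted p = 0.341). *Smarca2*, with values of 2 to 5, was not tested. Of 21 tested BAF subunit genes *Bcl7a* rose 1.52-fold, from 9, 10, 10 and 10 to 13, 14, 15 and 20, and its call was lost without PFI-3 replicate 1, PFI-3 replicate 2 or P+B replicate 2 (log2 changes of 0.61, 0.53 and 0.51, adjusted p up to 0.0624). None of 23 tested genes of other bromodomain proteins was called.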

How the data were processed

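RNA-seq of 8 libraries of doxycycline-treated JUN-TetON ESCs was analysed, 2 for each of DMSO, PFI-3, BI-9564 and P+B. Per the submitters' processing notes, bcl2fastq, Bowtie2 2.2.5 and RSEM 1.3.0 were used with the build mm10, and the annotation is not given in the sources used here. The authors deposited 1 table with 50600 rows of genes. Its unit is a score, since the deposited values look like TPM rounded or cut to whole numbers. Of its rows, 33075 were at 0 in all libraries, 94 had a repeated name and 27 were named as a date. TPM keeps no depth, so DESeq2, the authors' tool for counts, was not run.

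The scale was log2(value + 1). Models were fitted by limma 3.58.1 (R 4.3.3), using eBayes with its trend option, over 10222 genes with a mean of at least 5. The model held BI-9564, PFI-3 and the replicate number, with 4 residual degrees of freedom. P-values were adjusted by Benjamini-Hochberg over all tested genes, and calls needed an adjusted p under 0.05 together with a change of 1.5-fold or more. All adjusted p-values given are from limma. An exact sign test over the 4 matched pairs cannot go below p = 0.125. The interaction of both compounds was fitted on the same genes. The fits were tested on simulated data.

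The replicate numbers were taken to pair the libraries because the difference between replicate 2 and 1, across genes, correlated between all 6 pairs of groups (Pearson's r 0.143 to 0.236). The genes named were the 15 largest rises and falls called with the same direction in all matched pairs and with no provisional name, all JUN targets and genes of the bound proteins, and of each other list the members called and up to 4 with the smallest p. Genes named outside this rule are said to be so or were picked for the difference between the compounds. The groups of libraries, the gene lists and the tests were chosen with earlier results of these data known. Lists are described by counts and medians. Promoters and their starts are from RefSeq (GRCm38.p6), matched by symbol for 7782 of the tested genes, and gene positions are from GENCODE M21 on GRCm38. Some genes that the rule names are not reported here. The alternatives are given in the closing section.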

Additional observations from a re-analysis of the deposited data

How the results depend on the processing

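The count of 526 genes was 391 with no replicate block, 541 with a pseudocount of 0.5, 332 with one of 5, 584 and 225 with the minimum mean set to 1 and to 20, 495 with no filter, 475 after quantile normalization, 526 after median centring, 490 without a trend, 1656 with no fold threshold, 280 at an adjusted p under 0.01, 506 as the average of both arms, 389 with no PFI-3 block and 369 to 464 with 1 library left out. Within libraries without PFI-3, with PFI-3, of replicate 1 or of replicate 2, each with 1 residual degree of freedom, it was 0, with 1763, 1863, 1759 and 1704 genes at an unadjusted p under 0.05. All 391 genes called with no replicate block were among the 526, and 21 of the 100 genes followed through the alternatives lost their call there. These included *Anxa1* and *Anxa2*. With no PFI-3 block, the calls lost included those of *Fosl1*, *Anxa1*, *Anxa2*, *Itga3*, *Itga6*, *Itga7*, *Krt8*, *Cldn6*, *Flnc*, *Lama3*, *Plaur*, *Hbegf*, *Nrg1* and *Plet1*. The interaction count stayed at 0 except for 1 gene without PFI-3 replicate 1 (*Gm42742*) and 1 without P+B replicate 1 (*Gm12191*), both with a single library far below the rest. The difference between BI-9564 and PFI-3, 188 genes, was 61 with no replicate block, 96 with no filter, 0 without a trend, 339 with no fold threshold, 26 at an adjusted p under 0.01 and 4 to 156 with 1 library left out (4 without PFI-3 replicate 2, 7 without PFI-3 replicate 1, 7 without BI-9564 replicate 2 and 57 without BI-9564 replicate 1). These alternatives of the difference were added after the data were seen. None of the 100 genes changed direction under any alternative run. The causes of these shifts were not tested, beyond the fewer genes or libraries some settings hold. Depth is unknown.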

Other observations

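Genes of other lists moved one at a time. Over all tested genes 2.31% were called higher and 2.84% lower, so single calls say little about a list. *Peg3*, a paternally expressed imprinted gene, rose 1.89-fold, from 38, 31, 33 and 28 without BI-9564 (DMSO, then PFI-3) to 63, 61, 61 and 63 with it (BI-9564, then P+B; limma adjusted p = 0.000684). *Ndn*, another imprinted gene, rose 1.54-fold at values of 5 to 10 and lost its call in all 8 fits that left out a library. These were 2 of 17 tested imprinted genes, of which 13 had a change below 0. *Hspa1b*, an inducible HSP70 gene, rose 1.73-fold, the one called of 16 tested heat shock genes. *Xbp1*, a factor of the unfolded protein response, fell 1.66-fold, from 43, 43, 40 and 48 to 36, 23, 23 and 23, the one called of 20 tested genes of that response. *Tef* (1.74-fold) and *Nr1d2* (1.61-fold), clock-linked transcription factors, rose, and *Nr1d2* lost its call whichever library was left out.

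*Bhlhe40* (1.66-fold) and *Ndrg1* (1.74-fold) fell among 24 tested glycolysis and hypoxia genes, *Tead4* (1.65-fold) among 14 YAP-TEAD genes, *Tet2* (1.5-fold) among 10 DNA methylation genes and *Ddx58*, the RNA sensor RIG-I (1.57-fold), among 12 interferon response genes. *Ndrg1* lost its call in 7 of the 8 fits that left out a library, *Tet2* in 6, *Ddx58* in 5 and *Tead4* in 3. *Ier3* (2.2-fold) and *Dusp5* (1.57-fold) fell among 14 immediate early genes outside AP-1, where *Btg2* was the one that rose, and *Dusp5* lost its call in 5 of the 8 fits that left out a library (adjusted p up to 0.102), with no filter, with no trend and with no PFI-3 block. *Hist1h1c* rose 1.91-fold, a call lost in 5 of the 8 fits that left out a library (adjusted p up to 0.0804) and with no filter. It is 1 of 5 tested histone genes, whose transcripts mostly lack the poly(A) tail that the oligo-dT selection of these libraries binds.

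No gene was called among 42 ribosomal protein genes (median 0.03), 34 of oxidative phosphorylation (0.02), 13 mitochondrially encoded (0.05), 24 of cholesterol synthesis (0.15), 15 of fatty acid synthesis (0.02), 36 lysosomal genes (-0.03), 19 NRF2 and metallothionein genes (-0.11), 9 xenobiotic response genes (-0.10) and 16 H3K27 enzymes (0.02). The 31 ribosome biogenesis and MYC target genes had no call either, yet 26 had a change below 0 and 11 had all 4 libraries with BI-9564 below all 4 without (median -0.12). Over all tested genes, 4543 of 10222 had a change below 0 and 6.04% had all 4 libraries with BI-9564 below all 4 without.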
